A study of Mus musculus with 3 samples.

Results

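Genes for 7 transcription factors that direct heart formation, Mesp1, Mesp2, Isl1, Gata4, Tbx5, Mef2c and Hand2, were examined for binding of YY1 in cardiac progenitor cells. The members are the YY1 peak calls, here called intervals, in 6 windows of the mouse genome fixed around these genes, with Mesp1 and Mesp2 in 1 window. They numbered 89, of which 2 came from replicate 1 and 87 from replicate 2, out of 118800 intervals in all. The windows were set by position and not by any measured value.

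YY1 is a zinc-finger protein that can activate or repress transcription and that binds promoters and enhancers in many cell types. Mesp1 and Mesp2 are basic helix-loop-helix factors of nascent mesoderm, and Mesp1 marks the earliest cells with a cardiac fate. Isl1, a LIM-homeodomain factor, marks progenitors of the second heart field. Gata4 (zinc finger), Tbx5 (T-box), Mef2c (MADS box) and Hand2 (basic helix-loop-helix) act together in the progenitors to switch on heart muscle genes.

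The data were chromatin immunoprecipitation followed by sequencing (ChIP-seq) with an anti-YY1 antibody. Mouse embryonic stem cells of strain C57BL/6, with a transgene in which Nkx2.5 drives GFP, were differentiated as embryoid bodies for 6 days, and the GFP-positive cells were sorted by flow cytometry. The series has 3 samples: 2 YY1 ChIP samples from independent sorts (replicates 1 and 2) and 1 input from such cells, which was not analysed here. All of them are in vitro cells chosen by this 1 reporter, and no other genotype, treatment or time was compared; the identity of the cells could not be checked, since the files hold no expression values.

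The replicate 1 list held 3691 intervals and that of replicate 2 held 115109, so each window was compared only with windows of its own size in the same list. Read totals were not used here and the depth is unknown. Each interval has a MACS score, the authors' value, where a higher score is a stronger call, and the median score was 77.3 in replicate 1 and 129 in replicate 2. Coordinates are those of the mm9 build, counted from 1. The places of the genes themselves in mm9 were not used here, so an interval is placed in a window and not in an exon, an intron or a promoter.

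In replicate 2, YY1 intervals were dense in the Tbx5 window, and the other 5 windows did not differ from the chromosome mean beyond counting error. Replicate 2 had 37 intervals at Tbx5, 13 at Mef2c, 10 at Isl1, 10 at Mesp1 and Mesp2, 9 at Hand2 and 8 at Gata4. The Tbx5 and Mef2c windows also held 1 replicate 1 interval each, and the other 4 windows held none. Of these 2 intervals, only the one in the Tbx5 window was called again in replicate 2. Together the 87 replicate 2 intervals were 1.32 times the 66.0 given by the mean of the same-size windows (95% exact Poisson interval 1.06 to 1.63, counting error only). Without the Tbx5 window the ratio was 0.920 (0.683 to 1.21), so the excess over the mean rests on that window. The 2 replicate 1 intervals were 0.941 times the 2.12 given by the mean (0.114 to 3.40), an interval that takes in 1. Even a count of 0 has an upper limit of 3.69, above 2.12. That list therefore could not have shown fewer intervals than the mean. At Tbx5 the 1 replicate 1 interval was 2.97 times the mean (0.0751 to 16.5), too few to tell whether the window was dense in that list.

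**Figure D1:**
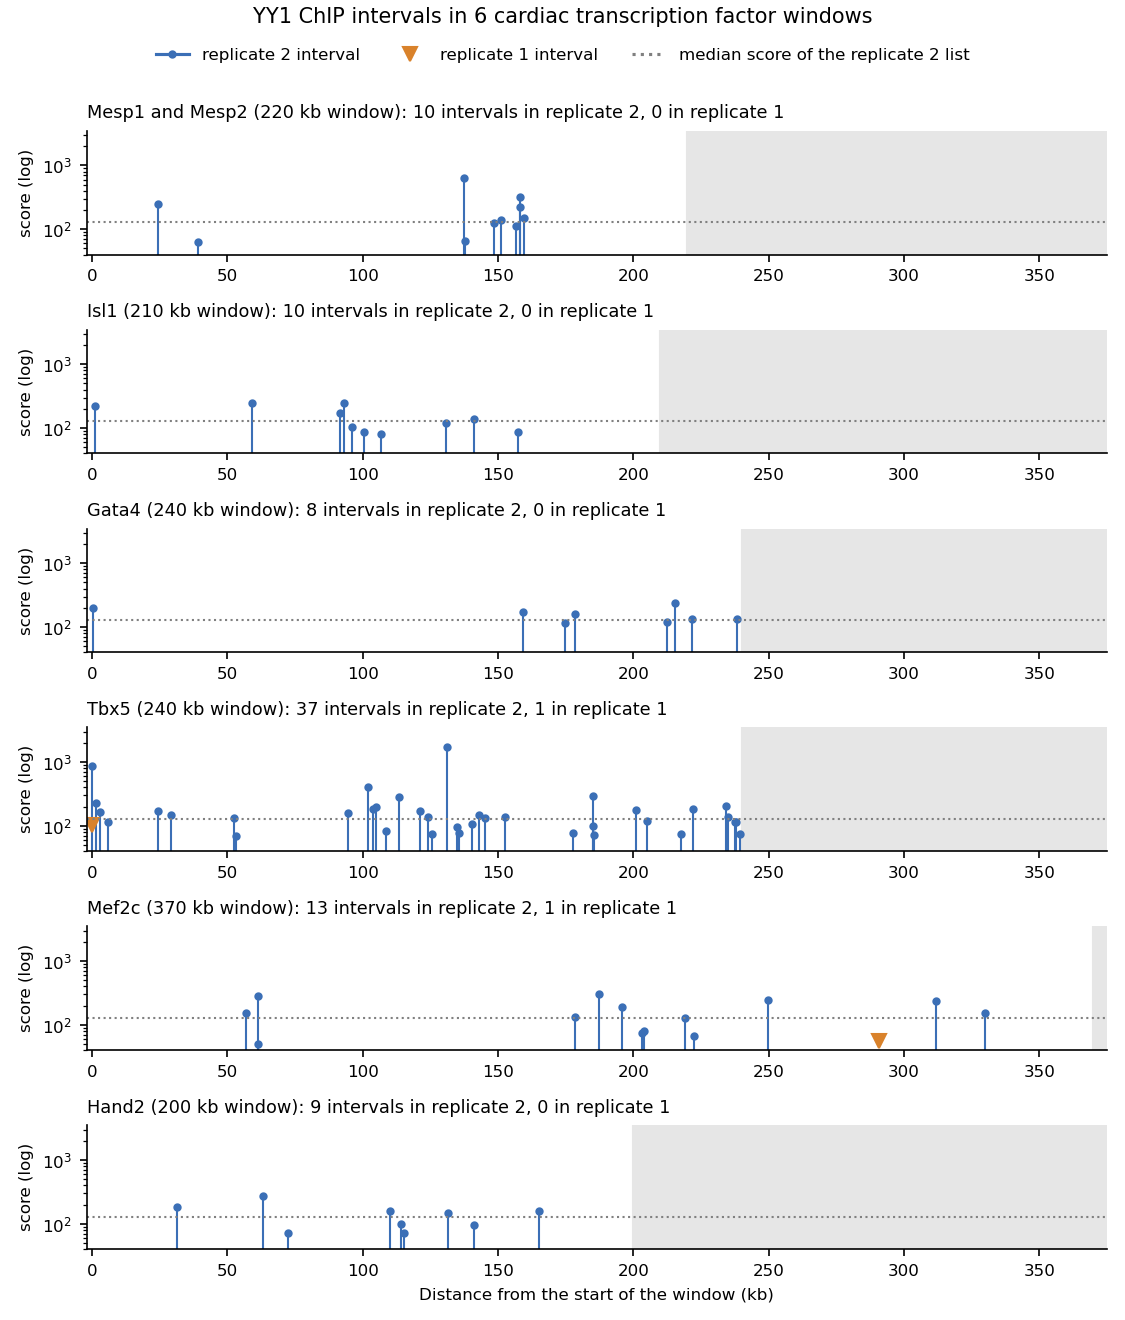
Score of each YY1 interval (vertical axis, log scale) by its distance in kb from the start of its window, for 6 windows; blue points are replicate 2, orange triangles replicate 1, the dotted line is the median score of the replicate 2 list (129), scores are not comparable between the lists, and grey marks the area beyond the window. The Tbx5 window holds 37 replicate 2 intervals and each other window 8 to 13.

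**Figure D2:**
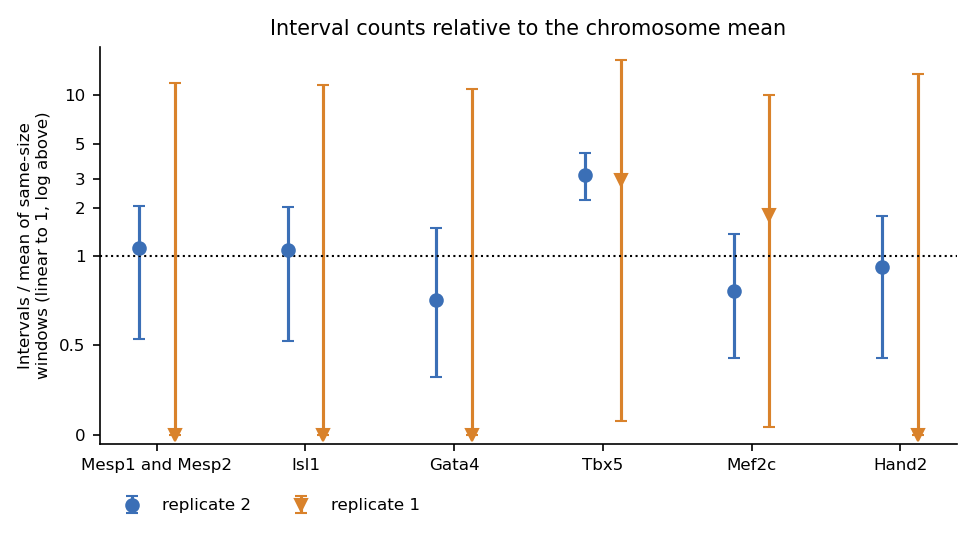
Number of intervals in each window divided by the mean of same-size windows on its chromosome (vertical axis, linear up to 1 and logarithmic above), with 95% exact Poisson intervals as bars; blue circles are replicate 2 and orange triangles replicate 1. In replicate 2 only the bar of the Tbx5 window (2.24 to 4.39) lies clear of 1, and the replicate 1 bars reach from near 0 to 9.99 or more.

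Mesp1 and Mesp2, which are neighbours in the gene order of the genome, share a window of 220 kb on chromosome 7 from 86840000 to 87060000. It held 10 replicate 2 intervals, against a mean of 8.91 for the 14929 windows of this size on the chromosome, with starts every 10 kb. The ratio to the mean was 1.12 (0.538 to 2.06), and 57.8% of the windows held fewer. The number was therefore near the mean. Of the 10 intervals, 8 lay within 22.3 kb, from 86977368 to 86999690, and 98.0 kb before this group held none. Gaps at least that long made up 23.6% of the span of the chromosome. Of the same-size windows 2.00% had as many intervals within 25 kb, where the median was 3. This limit was set after the group had been seen, so the share is a description and says nothing on whether the spacing stands apart.

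The strongest interval of this window opened the group, from 86977368 to 86977565. It scored 638, more than 98.0% of the replicate 2 list, and at 198 bp it was also the widest of the window. The next was at 86998061 to 86998130, with a score of 314 and a width of 70 bp, and another began 70 bp beyond its end. The third, a 49 bp interval outside the group at 86864391 to 86864439, scored 244. Replicate 1 had no interval in the window, as in all but 21.5% of the windows of this size, and none that replicate 2 shared, as in all but 11.3%. The nearest replicate 1 interval lay 213 kb to the right, at 87273274 to 87273368, scored 71.4 and was not shared.

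Of the members, Mesp1, Mesp2, Isl1, Mef2c and Hand2 had promoters in the RefSeq table, 7 in all, each 250 bases before to 50 after the start of the gene in the GRCm38.p6 build; Gata4 and Tbx5 had none there. The core of the YY1 motif, CCATNTT on either strand (AANATGG when read on the other), was found in 1 of the 7. It was present in 16.1% of all 32851 promoters listed there. The promoter with the match was that of Mesp1, the earliest of these factors to act, on the minus strand at chr7:79793541-79793840 of GRCm38.p6. It is shown 5′ to 3′ because it is the 1 member promoter with these letters, and the capitals mark the match, which begins 135 bases before the start of the gene and has the motif on the strand opposite to it. The intervals are in another build, so it is not known whether any of them covers this promoter.
Mesp1 promoter: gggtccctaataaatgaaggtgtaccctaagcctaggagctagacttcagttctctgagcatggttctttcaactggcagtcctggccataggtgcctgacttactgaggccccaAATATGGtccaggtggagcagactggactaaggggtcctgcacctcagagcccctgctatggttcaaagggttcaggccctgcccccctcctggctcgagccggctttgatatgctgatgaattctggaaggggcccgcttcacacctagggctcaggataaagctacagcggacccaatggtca

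Isl1, the LIM-homeodomain factor, had a window of 210 kb on chromosome 13 from 116990000 to 117200000. Replicate 2 held 10 intervals there, against a mean of 9.15 over 11698 windows, a ratio of 1.09 (0.524 to 2.01), and 57.2% of the windows held fewer. Midway along it, 5 intervals lay within 15.1 kb, from 117081726 to 117096843, and 25.5% of the windows had as many within 25 kb. The highest score was 249.81, which 2 intervals had, one 62 bp wide at 117049005 to 117049066 and one 44 bp wide at 117083147 to 117083190. The next, at 116991219 to 116991287, scored 220, while the widest, 78 bp at 117147214 to 117147291, scored only 85.9. None of the 10 was in the highest decile of scores, and after the last of them 117 kb followed without an interval, running past the end of the window; gaps at least that long made up 11.8% of the span of the chromosome.

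Replicate 1 had no interval in the Isl1 window, where 25.3% of the windows of this size on the chromosome held at least 1 and 11.7% held a shared one. The nearest lay 627 kb to the right, at 117826504 to 117826564, with a score of 77.3, and was not shared. Within 500 kb on either side of the centre of the window replicate 1 had 0 intervals and replicate 2 had 50. Over chromosome 13 the lists had 1.52 and 43.5 intervals per Mb, so neither count was far from the mean.

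Gata4, the GATA zinc-finger factor, had a window of 240 kb on chromosome 14 from 63720000 to 63960000. It held the fewest replicate 2 intervals of the 6 windows, 8, against a mean of 10.6 over 12185 windows. The ratio was 0.756 (0.326 to 1.49), with 26.7% of the windows holding fewer, so it did not differ from the mean beyond counting error. The intervals left most of the window empty. After the first, at 63720470 to 63720529 with a score of 197, no interval followed for 159 kb, and the other 7 lay between 63879370 and 63958295. Of the 5376 gaps between neighbouring replicate 2 intervals on chromosome 14, 13 were at least that long, and they made up 1.91% of its span. The gap was picked as the longest of its window, as were those named for other windows, so its rank is a description.

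The strongest interval at Gata4, at 63935147 to 63935306, scored 234, more than 83.4% of the list, and was the widest of the window at 160 bp. The next after the 197 was that at 63879370 to 63879421, with a score of 172 and a width of 52 bp. None of the 8 reached the highest decile. Replicate 1 had no interval here, as against 26.6% of the windows of this size with at least 1 and 12.8% with a shared one. It had one 8.04 kb before the left edge, at 63711924 to 63711965, which scored 116, more than 84.8% of the replicate 1 list, and was not shared.

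Tbx5, the T-box factor, had a window of 240 kb on chromosome 5 from 120190000 to 120430000, with Tbx3 and Rbm19 as the protein-coding neighbours of the gene. Its 37 replicate 2 intervals were 3.19 times the mean of 11.6 over the windows of this size on the chromosome (2.24 to 4.39). Of those 14924 windows, 99.7% held fewer, and 0.255% held 37 or more, up to 44. On all autosomes 0.0448% of the windows of this size held as many. Per Mb the window had 154 intervals, against 33.3 to 47.6 in the other 5. Its density was 3.24 times that of Isl1 (1.58 to 7.30), 3.39 times that of Mesp1 and Mesp2 (1.65 to 7.65), 3.43 times that of Hand2 (1.62 to 8.07), 4.39 times that of Mef2c (2.28 to 8.996) and 4.62 times that of Gata4 (2.12 to 11.5), with 95% exact binomial intervals. The Tbx5 window was set against the others after its count was seen, so these ratios are a description.

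**Figure D3:**
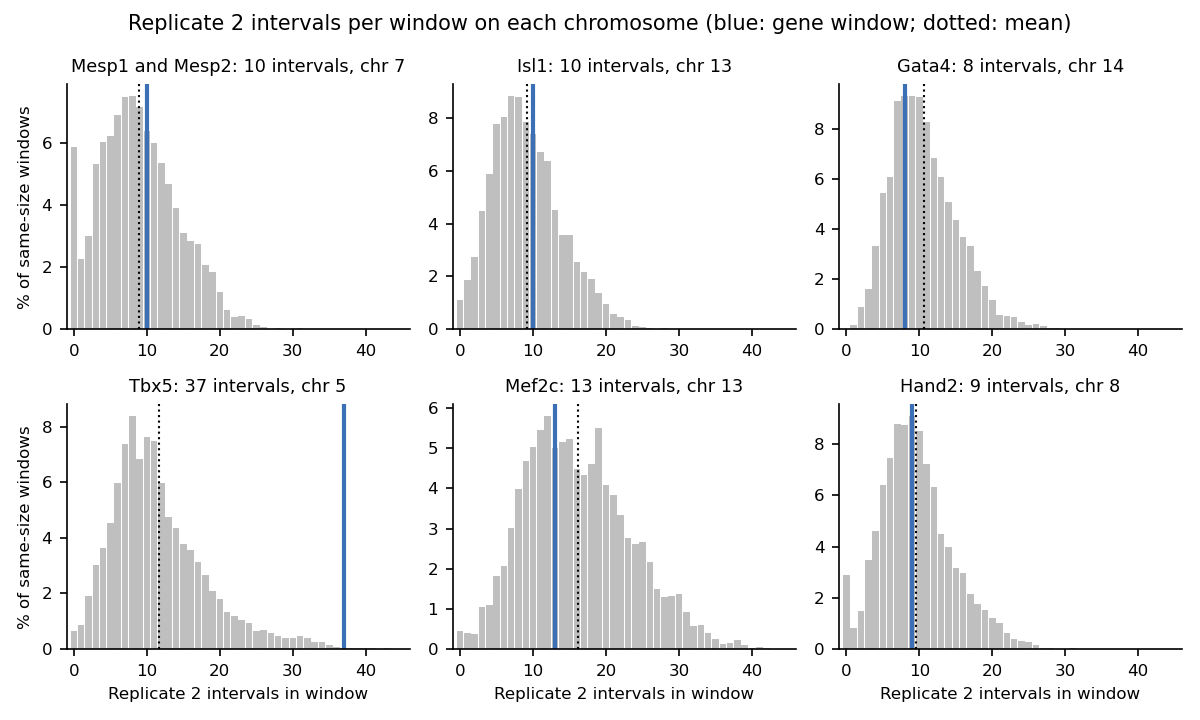
Share of same-size windows on the chromosome (vertical axis, percent) by the number of replicate 2 intervals they hold (horizontal axis), for each gene window; the blue line is the gene window and the dotted line the mean. The Tbx5 line, at 37, lies at the far right of its distribution, and the other 5 lines, at 8 to 13, lie in the body of theirs.

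The intervals were spread along the Tbx5 window. Of its 12 bins of 20 kb, 11 held at least 1 replicate 2 interval, a share of 91.7%, against 55.5% of all such bins on the chromosome. In the other windows 27.3% to 60% of the bins were filled. The median space between neighbours was 3.42 kb at Tbx5, against 11.4 kb over chromosome 5, and the longest was 41.5 kb. The densest 25 kb held 9 intervals, from 120311211 to 120335105, which 2.79% of the windows of this size on the chromosome reached.

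The scores at Tbx5 were mixed. Its strongest interval, at 120321200 to 120321406, scored 1757, which ranked 294 in the replicate 2 list. At 207 bp it was also the widest of all members and the only one with a score of 1000 or more, a level reached by 935 intervals of the list. It lay inside the densest 25 kb. The third by score, at 120291758 to 120291907, scored 408 and was 150 bp wide. As a whole the 37 had a median score of 140, somewhat above the list's median of 129, and 22 of them were above it. Whether their scores differ from those of the list was not tested. Of the 37, 4 were in the highest decile of scores, close to the share of the list there, since 89.8% of it scored lower.

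The second strongest interval at Tbx5 was the 1 call that both sorts gave in any of the 6 windows. Replicate 1 had it at 120190125 to 120190168, 44 bp wide, with a score of 102, more than 78.1% of that list. Replicate 2 had it at 120190124 to 120190187, 64 bp wide, with a score of 864 and rank 1257. On chromosome 5, 26.8% of the windows of this size held a replicate 1 interval and 12.5% a shared one, so holding 1 does not set the window apart. This interval lay only 125 bp inside the left edge of the window, so that it belongs to Tbx5 only by where the window was drawn. Replicate 1 had another shared interval 59.1 kb before that edge, at 120130810 to 120130874, with a score of 82.1, and none for 930 kb beyond the right edge. Over the whole replicate 2 list only 1.26% of the intervals were shared.

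The high density did not end at the window. The 240 kb to its left held 33 replicate 2 intervals and the 240 kb to its right 15. Within 1 Mb on either side of the centre there were 213 intervals, or 106.5 per Mb, against 48.3 per Mb over chromosome 5. Within 2.5 Mb on either side the density was 84.0 per Mb. Against the windows within 5 Mb the ratio of the Tbx5 window to the mean was 2.23 (1.57 to 3.08), so part of its excess was shared with a broad stretch of the chromosome. None of the other 5 windows had more than 59.0 replicate 2 intervals per Mb within 1 Mb of its centre.

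**Figure D4:**
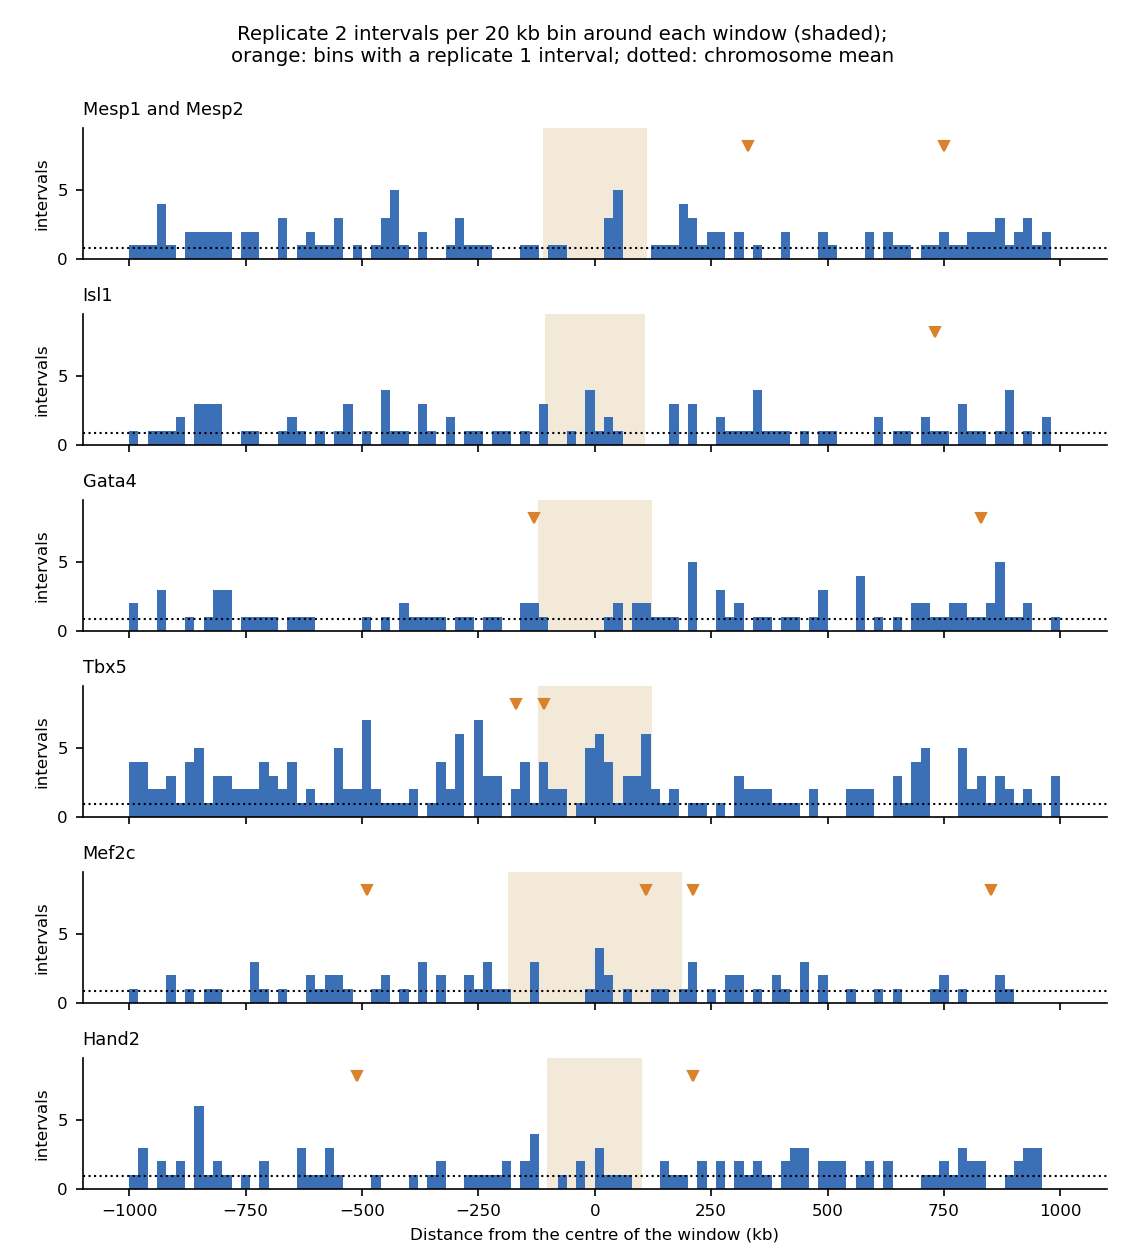
Replicate 2 intervals per 20 kb bin (vertical axis) by distance in kb from the centre of each window; shading marks the window, orange triangles mark bins with a replicate 1 interval and the dotted line is the mean of the chromosome. Around Tbx5 the bars reach 7, and more of them are high to the left of the window, where the adjoining 240 kb held 33 intervals against 15 to the right.

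Mef2c, the MADS-box factor, had the largest window, 370 kb on chromosome 13 from 83540000 to 83910000. Its 13 replicate 2 intervals compared with a mean of 16.1 over 11682 windows, a ratio of 0.807 (0.429 to 1.38), and 35.3% of the windows held fewer. Against the windows within 5 Mb the direction turned, with a ratio of 1.23 (0.657 to 2.11) and 74.9% holding fewer. Per Mb it had 35.1 intervals, close to the 33.3 of the Gata4 window. A space of 117 kb without any interval ran from 83601371 to 83718510, and 79 of the 5099 gaps of the chromosome were as long, which together made up 11.7% of its span.

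The strongest interval at Mef2c, at 83727264 to 83727357, scored 306 and was 94 bp wide, the only one of the 13 in the highest decile. The next, at 83601303 to 83601370, scored 284 and bordered the empty stretch. It lay 30 bp from a 106 bp interval that scored 50.3, among the lowest scores of the list. The third, at 83789819 to 83789902, scored 241, and the widest, 128 bp at 83743070 to 83743197, scored 73.4. The widest call was thus not among the strongest here, although the 3 strongest were all wider than the window's median width of 65 bp.

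Replicate 1 had 1 interval in the Mef2c window, at 83830827 to 83830930, 104 bp wide. Its score of 54.8 was higher than only 5.64% of the replicate 1 list, and the nearest replicate 2 interval was 20.9 kb away. At least 1 replicate 1 interval was found in 39.7% of the windows of this size on the chromosome and a shared one in 19.3%. A further replicate 1 interval lay 17.6 kb beyond the right edge, at 83927565 to 83927606, and was not shared either.

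Hand2, the basic helix-loop-helix factor of the right ventricle, had a window of 200 kb on chromosome 8 from 59700000 to 59900000. Its 9 replicate 2 intervals stood against a mean of 9.60 over 12840 windows, a ratio of 0.938 (0.429 to 1.78), and 44.7% of the windows held fewer. In the central 50% of the window the ratio was 1.46 (0.586 to 3.01). The same cut gave 2.93 at Tbx5, 1.97 at Isl1, 1.80 at Mesp1 and Mesp2, 0.993 at Mef2c and 0.567 at Gata4. Of these values only that of Tbx5 had a counting interval clear of 1. The strongest interval at Hand2, at 59763020 to 59763142, scored 271, more than 87.7% of the list, and was the widest of the window at 123 bp. The next, at 59731405 to 59731464, scored 182, and the third, at 59810117 to 59810212, scored 160 and was 96 bp wide. They lay apart, with a median space of 12.8 kb between neighbours, close to the 12.2 kb of the chromosome, and none was in the highest decile.

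Replicate 1 had no interval in the Hand2 window, where 22.4% of the windows of this size on the chromosome held at least 1 and 10.2% held a shared one. The nearest lay 109 kb to the right, at 60008836 to 60008915, scored 79.9 and was not shared.

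In width the replicate 2 members together lay near the list they came from, and in score a larger share of them lay above its median. Over the 6 windows 52 of the 87 replicate 2 intervals scored above the list's median, or 59.8% (95% exact binomial interval 48.7 to 70.1%), and 7 were in the highest decile, or 8.05% (3.30 to 15.9%). Scores tie in the list: 47.7% of it scored below the median score, and 3897 of its 115109 intervals had that score. Less than 50% of the list therefore scored above the median, and the members' share of 59.8% was higher. The interval of that share reached down to 48.7%, and whether the scores differ was not tested. For the highest decile, 89.8% of the list scored below it. The 7 comprised 4 at Tbx5, 2 at Mesp1 and Mesp2 and 1 at Mef2c. The median width of the 87 was 60 bp, against 61 bp in the list, and 14.9% were wider than 100 bp, against 14.1%. The pooled values joined unlike parts. At Tbx5 8 of the 37 were wider than 100 bp, with a median of 65 bp. Without the Tbx5 window 10% were, with a median of 56.5 bp. Of the 2 replicate 1 members 1 was shared, and 40.6% of the whole replicate 1 list was. Of the 87 replicate 2 members 1 was shared, against 1.26% of the whole replicate 2 list.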

How the data were processed

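YY1 ChIP-seq was carried out on 2 samples, with 1 input. Per the file headers, the authors called peaks with MACS in Galaxy; 1 list of intervals with scores was deposited per ChIP sample. Not given in the sources used here are the formula of the score, the MACS version and settings, the aligner, the role of the input and the read totals. The submitters' processing notes name the build mm9. The RefSeq tables used for neighbours and promoters are of GRCm38.p6, and nothing was carried between builds.

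An overlap of at least 1 bp put an interval in a window, and made 2 intervals of different lists shared. Comparison windows of the same size started every 10 kb between the first and last interval of either list on the chromosome. They overlap each other, include the gene window and take in assembly gaps, so their shares are descriptions and no p-value was computed. This full set of positions stands in for a random draw. The 95% intervals are exact, cover counting error only and treat peak calls as independent, although neighbouring ones can cluster.

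Named are all replicate 1 intervals of the windows, the replicate 2 intervals they overlap, the 3 strongest and the widest replicate 2 interval of each window (ties to the wider) and, where a window had none, the nearest replicate 1 interval. The members and lists were chosen with earlier results of these data known. The 25 kb stretch, the 20 kb bins, the gaps, other edge intervals named and the comparison of Tbx5 with the other windows were added after values were seen. Other heart genes were not placed in mm9 and were not analysed here. Window counting was tested on simulated data and recovered the planted number in 6 of 6 windows. The software was Python 3.11.15 with pandas 2.3.3, NumPy 2.4.6, matplotlib 3.10.9 and SciPy 1.17.1.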

Additional observations from a re-analysis of the deposited data

How the results depend on the processing

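The ratio of replicate 2 intervals to the mean, 1.32 over the 6 windows, fell to 0.920 without the Tbx5 window, and stayed between 1.27 and 1.59 in the other 15 alternatives. With the highest 25% of scores it was 1.33, but its interval of 0.832 to 2.01 took in 1. In replicate 1 the ratio was 0 when each window was cut to its central part, with 50% of its length, since both intervals lay outside it, and 0.559 to 1.70 otherwise. Of 120 alternatives for single windows, 114 stayed within the counting error of the value reported and 6 moved outside it. The direction was less stable: 18 of the 120 lay on the other side of 1 from the value reported, 5 in replicate 1, where each rests on 1 interval, and 13 in replicate 2. These 13 were of the windows other than Tbx5, and all had counting intervals that took in 1, so the side of the mean on which those 5 windows lay was not determined. Their ratios ranged from 0.427 to 1.97. Of the 6 that moved, 4 were replicate 1 counts of Tbx5 or Mef2c that fell to 0, the Hand2 window fell to 0.427 with the highest 25% of scores, where 1 interval was left, and the Tbx5 window fell to 2.23 against windows within 5 Mb. At Tbx5 the replicate 2 ratio was 2.23 to 3.84 over 10 alternatives. The share of replicate 2 members above the list's median score was 52.4% to 61.0%, and 1 shared replicate 1 interval was found under all 4 alternatives run. No value could be recomputed without a replicate, since each is given per list or needs both. No paired analysis was possible because the samples form 1 group. Depth is unknown, so a window without a replicate 1 interval cannot be called unbound.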

Other observations

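Scores were often tied, among the members as in the list. Of the 87 replicate 2 members 80 had a score that at least 1 other interval of the list also had, against 95.1% of the whole list, and the score of 139.61 belonged to 4 members and to 3261 intervals of the list. The strongest Tbx5 interval and the strongest interval at Mesp1 and Mesp2 were among those with a score of their own.

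The amount of sequence under the calls was small in every window. In replicate 2 they covered 3104 bp of the Tbx5 window, or 1.29%, and 0.215% to 0.333% of each of the other 5. Pairs of neighbouring replicate 2 intervals with midpoints within 500 bp numbered 3 at Tbx5, 2 at Mesp1 and Mesp2 and 1 at Mef2c, and 0 at Isl1, Gata4 and Hand2. This is 6.90 pairs per 100 intervals, against 5.20 over the whole list.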
